A study of Homo sapiens with 8 samples.

Results

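The 56 genes described here copy the genome or prepare the cell to do so. They were taken by name, by their known role in DNA replication and S phase, from the 23393 genes of the count table, and all 56 passed the filter on low counts, as did 15262 genes in all. They were followed in MDA-MB-231 cells, an established human triple-negative breast cancer line that makes too little of the enzyme ASS1 to supply its own arginine, and in ρ0 cells, a derivative of that line without mitochondrial DNA. RNA was sequenced from 4 groups of 2 libraries, namely parental control, parental starved, ρ0 control and ρ0 starved, and starvation lasted 48 h. The study's text describes culture in medium without arginine, while the labels of the samples give treatment of full medium with arginine deiminase (0.3 µg/mL), which breaks arginine down. The ρ0 libraries came from a single clone (clone 27). The study's methods call its ρ0 line a gift from another laboratory, while its results describe ρ0 lines derived with ethidium bromide. Ethidium bromide, uridine and sodium pyruvate are named as additions to the medium of ρ0 cells and not of parental cells. The content of the base medium was not checked. The line and its medium therefore cannot be told apart in any comparison between lines. Nothing states that the 2 libraries of a group came from separate cultures, so p-values measure the spread between these libraries, which may be technical.

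Replication starts at origins, where the origin recognition complex (ORC), CDC6 and CDT1 load the MCM2-7 ring, the helicase that will unwind the DNA, during G1 phase. At the start of S phase CDC45 and the GINS complex join the ring, polymerases are recruited, and the PCNA clamp holds them on the template. Many of the genes involved are transcribed in a wave at the boundary of G1 and S by E2F transcription factors, whereas genes of mitosis peak later through another promoter element, the cell cycle genes homology region (CHR).

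Total counts ranged from 25259503 to 31022155 per library, and levels are given as CPM (counts scaled to a library of fixed size), corrected for library composition. Markers of the line fitted the labels in part. VIM, CD44, AXL and CAV1, high in mesenchymal-like breast cancer cells, were abundant in every library, with a summed level of 1989 to 3614 CPM in parental and 5185 to 7550 CPM in ρ0 libraries. Of the markers low in this line, ESR1 and PGR stayed at or below 0.18 CPM, while the epithelial genes CDH1 (4.31 to 15.9 CPM) and EPCAM (16.4 to 23.7 CPM) were found in ρ0 libraries and reached at most 0.52 CPM in parental libraries. The 9 markers of other cell types summed to 63.1 to 147 CPM, of which CD68 alone made 51.3 to 122 CPM, and CD3E, a T cell gene, was at 0 in all libraries. The part of these line differences in the results was not tested. Depletion of mitochondrial DNA itself was not checked here.

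The ρ0 control libraries stood apart from each other in these genes. Replicate 2 was higher than replicate 1 in 50 of the 56 genes, with a median ratio of 1.51 and a range from 0.627 for RPA3 to 2.63 for FAM111B, and 28 genes were more than 1.5-fold higher in replicate 2, whereas RPA3 alone was more than 1.5-fold lower. Over all genes tested, 49.6% were higher in replicate 2, 12.4% more than 1.5-fold higher and 14.8% more than 1.5-fold lower. The transcription factors E2F1 (108 and 211 CPM) and E2F2 (5.45 and 13.9 CPM) were among the most different. Genes of mitosis went the other way. Of 30 such genes, 27 were lower in replicate 2, with a median ratio of 0.666. Over all genes the median ratio of the pair was 1.004. In the other 3 pairs the median ratio of the replication genes lay between 1.002 and 1.008, and no gene differed by more than 1.5-fold. The biological coefficient of variation was 25.1% between the ρ0 controls and 1.84% to 5.18% in the other pairs. Replicate 2 thus held more RNA of S phase genes and less of mitosis genes at an equal median of all genes. What set these libraries apart was not tested, and a different share of cells in S phase cannot be told apart from a different amount of RNA per cell, here or in any bulk comparison that follows. Medians over the 56 genes and over their role groups are therefore also given without each ρ0 control library. Such a fit takes the gap of this pair out of the shared estimate of spread, and more genes were called over all genes too. A call kept without either library is therefore no measure of robustness to that gap.

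**Figure D1:**
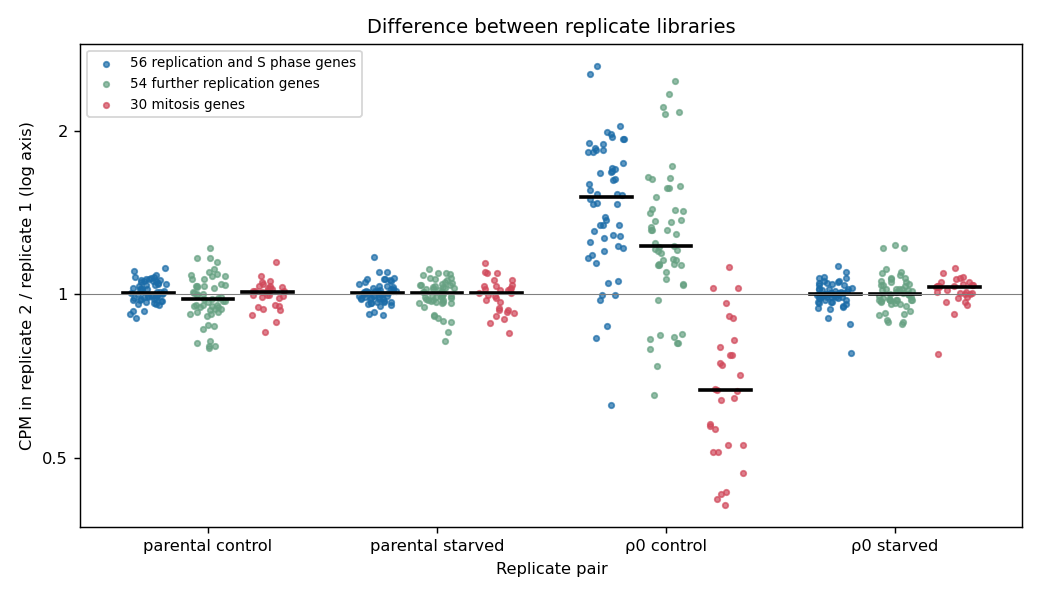
Ratio of CPM in replicate 2 to replicate 1 (log axis) in the 4 groups, for the 56 replication and S phase genes, 54 further replication genes and 30 mitosis genes. Points are genes and black lines are medians. In the ρ0 controls the medians are 1.51, 1.23 and 0.666, and in the other pairs they lie between 0.980 and 1.03.

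To show promoter sequence of these genes, stretches of 300 bases (250 before to 50 after the annotated gene start) were read from RefSeq (GRCh38.p14), in which 48 of the 56 genes had an entry. Each was searched on both strands for the letters TTTGGCGC, TTTCCCGC, TTTGCCGC and TTTCGCGC, to which E2F factors are known to bind. At least 1 of them was present in 22 of the 48 promoters (45.8%), against 3.31% of all 35116 promoters of the table and 5.09% of the 11182 promoters of tested genes. Of the comparison genes used below, 13 of 42 promoters of further replication genes (31%) and 3 of 25 promoters of mitosis genes (12%) held them. The CHR letters TTTGAA were present in 1 of the 48 promoters, that of RRM1 (2.08%). They were present in 15.2% of all promoters, 9.97% of those of tested genes and 16 of the 25 mitosis gene promoters found (64.0%). CCAAT, the box bound by NF-Y, was present in 58.3% of the 48 promoters, 34.6% of all and 36.2% of those of tested genes. A match describes the letters and is not a measured binding site. Stretches of 90 bases that end before the gene start are shown for 6 genes whose values carry the results below, the activator E2F1, the helicase subunit MCM6, the clamp PCNA, the loader CDT1, UHRF1, which moved in opposite directions in the lines, and LIG1, which fell most in parental cells. They are written 5′ to 3′ on the gene's own strand, and capitals mark the E2F letters in either orientation.
E2F1, chr20:33686386-33686475, minus strand: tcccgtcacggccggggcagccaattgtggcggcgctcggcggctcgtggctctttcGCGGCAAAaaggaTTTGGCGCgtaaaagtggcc
MCM6, chr2:135876514-135876603, minus strand: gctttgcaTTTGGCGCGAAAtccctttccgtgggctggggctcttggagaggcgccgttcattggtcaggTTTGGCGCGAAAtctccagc
PCNA, chr20:5126633-5126722, minus strand: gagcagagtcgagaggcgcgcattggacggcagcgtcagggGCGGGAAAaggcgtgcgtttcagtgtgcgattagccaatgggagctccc
CDT1, chr16:88803699-88803788, plus strand: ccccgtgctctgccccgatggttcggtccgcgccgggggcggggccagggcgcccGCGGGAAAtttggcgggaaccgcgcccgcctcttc
UHRF1, chr19:4909411-4909500, plus strand: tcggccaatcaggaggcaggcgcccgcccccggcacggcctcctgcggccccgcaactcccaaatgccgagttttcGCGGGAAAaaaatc
LIG1, chr19:48170410-48170499, minus strand: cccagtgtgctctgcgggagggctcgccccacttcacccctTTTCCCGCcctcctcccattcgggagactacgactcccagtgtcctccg
MCM6 held 2 runs of 12 bases in which the letters of both strands overlap, so its capitals count as 4 matches.

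In parental cells starvation divided these genes. Of the 56, 27 fell (48.2%), 7 rose (12.5%) and 22 did not pass the test (adjusted p under 0.05, Benjamini-Hochberg over all genes tested, edgeR's quasi-likelihood test). Over all genes tested 35.5% were called lower and 30.4% higher, so falls were somewhat more frequent than the background and rises less frequent. By the study's criterion for differentially expressed genes (DEGs), which also asks for a log2 fold change beyond 1, 15 genes were lower and 3 higher, against 22.1% and 12.7% of all genes, and both counts were unchanged without either ρ0 control library. The median log2 fold change was -0.39, against -0.07 for all genes. The largest falls were those of LIG1, TIMELESS and CHTF18, and the largest rises those of ORC6, GINS3 and RPA2. The counts depended on the ρ0 controls, which enter the shared estimate of spread. A fit to the parental libraries alone gave 37 lower and 13 higher. Over all genes it called 6167 lower and 5875 higher, against 5423 and 4637 in the shared fit, so calls became more frequent there too. The median of the 56 genes was -0.39 without ρ0 control replicate 1 and -0.35 without replicate 2. Rises numbered 4 without parental control replicate 1, parental control replicate 2 or parental starved replicate 1, and 3 without parental starved replicate 2. Of the 34 calls, 24 were kept in every one of 19 alternative settings, and those of ORC4, GINS1, GINS2, CLSPN, POLE3, RPA3, CHAF1A, CHAF1B, UHRF1 and RRM1 were lost in 1 or more. Scaling by upper quartile or total counts moved the median of all genes to -0.19 and -0.23, and that of the 56 genes to -0.51 and -0.55, with 5 and 3 genes still called higher.

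In ρ0 cells starvation lowered nearly the whole set. Of the 56 genes, 50 fell (89.3%), 0 rose, and ORC2, ORC4, ORC5, ORC6, POLE3 and RPA2 did not pass the test, whereas 22.1% of all genes tested were called lower and 19.2% higher. At an unadjusted p under 0.05 edgeR found 1 gene higher (ORC6). At an adjusted p under 0.05 DESeq2 and limma-voom each called 0 genes higher. DEGs numbered 41 lower and 0 higher, against 8.19% and 4.22% of all genes, with 40 and 0 without ρ0 control replicate 1 and 30 and 0 without replicate 2. The median log2 fold change was -1.40, against -0.02 for all genes. The largest falls were those of FAM111B, ORC1 and CDC45. Both ρ0 control libraries lay on the same side: replicate 1 was above both starved libraries in 50 of the 56 genes, with a median of 2.07 times the starved mean, and replicate 2 in 53 genes, with a median of 3.22 times. Over all genes tested these shares were 47.1% for replicate 1 and 46.0% for replicate 2. The median was -1.68 without ρ0 control replicate 1 and -1.04 without replicate 2. POLE3 and RPA2 changed direction with the library left out, and were above 0 without replicate 2. Of the 50 calls, 45 were kept in every alternative setting, the exceptions being MCM2, ORC3, CDC6, RFC1 and POLD2.

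**Figure D2:**
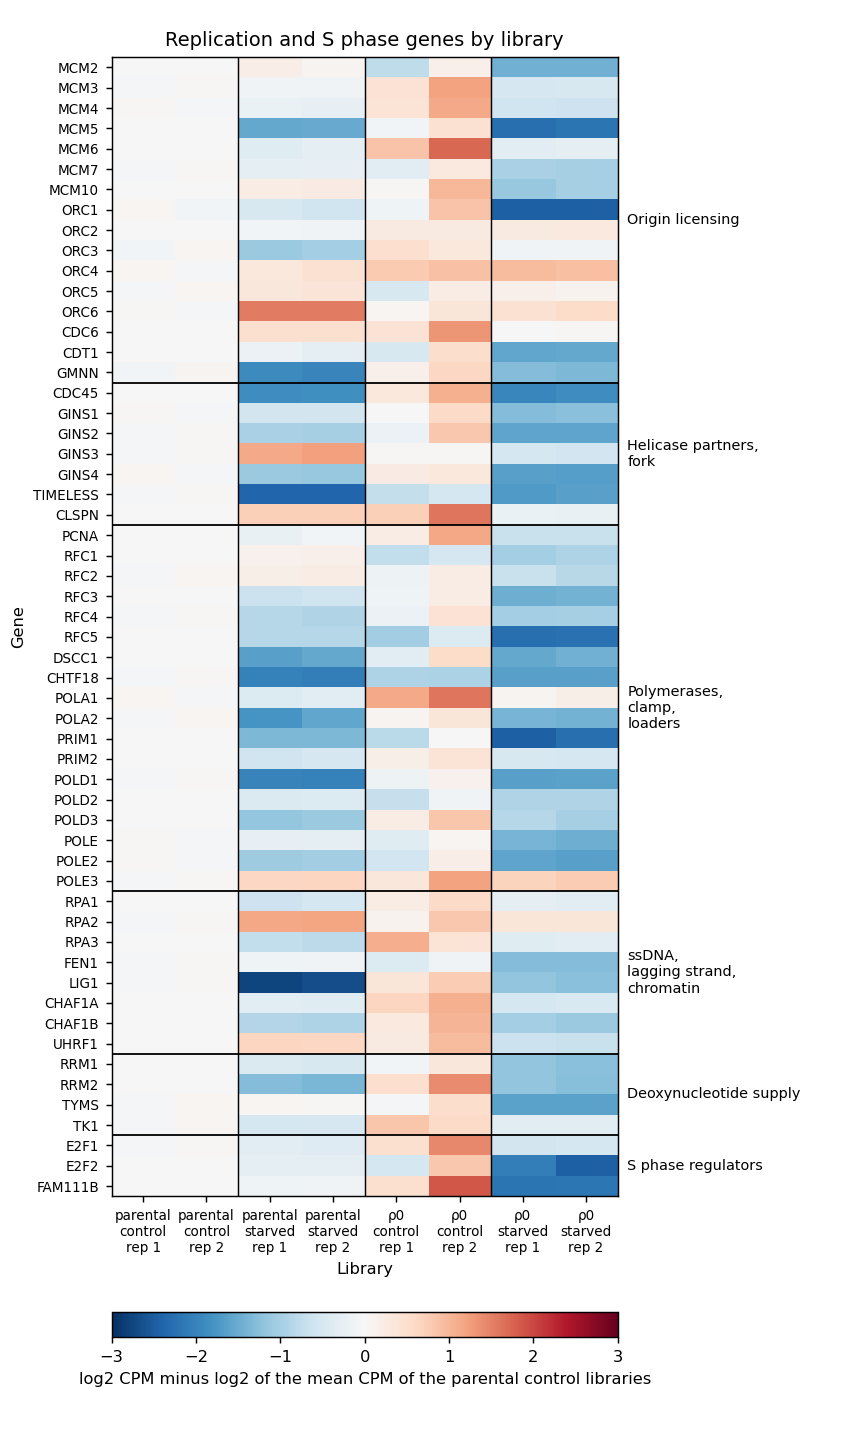
Log2 CPM of each of the 56 genes in each of the 8 libraries, minus the log2 of the mean CPM of the 2 parental control libraries, ordered by role. The parental starved columns hold both blue (LIG1, TIMELESS, CHTF18) and red (ORC6, GINS3, RPA2) genes, the ρ0 starved columns are blue for most genes, and ρ0 control replicate 2 is redder than replicate 1.

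The responses of the lines were compared by the interaction of line and starvation, given as the ρ0 response minus the parental response. For 31 of the 56 genes (55.4%) the ρ0 response was lower, and for 4 (ORC3, TIMELESS, CHTF18 and LIG1) it was higher, against 18.8% and 21.6% of all genes tested. The median difference was -0.89 on the log2 scale, against 0.02 for all genes. All 27 genes that fell in parental cells also fell in ρ0 cells. GINS3, CLSPN and UHRF1 rose in parental and fell in ρ0 cells, and ORC4, ORC6, POLE3 and RPA2 rose in parental cells and were not called in ρ0 cells. A further 20 genes fell in ρ0 cells and were not called in parental cells, among them MCM2, MCM3, MCM4, MCM6, MCM7, CDC6, CDT1, PCNA and E2F1. In a fit to the parental libraries alone 10 of these 20 were called lower in parental cells (MCM4, MCM6, MCM7, ORC1, CDT1, PCNA, POLA1, POLD2, POLE and E2F1) and 5 higher (MCM2, MCM10, CDC6, RFC1 and RFC2). The median difference was -1.12 without ρ0 control replicate 1 and -0.67 without replicate 2. Over all genes, calls became more frequent without either ρ0 control library and less frequent without any 1 of the other 6 libraries. With both ρ0 controls kept and 1 other library left out, the number called lower fell to 18 (without parental control replicate 1, parental starved replicate 1 or ρ0 starved replicate 2), 17 (without parental starved replicate 2 or ρ0 starved replicate 1) or 16 (without parental control replicate 2). Of the 35 calls, 19 were kept in every one of 18 alternative settings. For 13 genes, namely MCM2 to MCM7, CDC6, CDT1, PCNA, RFC1, TK1, E2F1 and E2F2, the call was lost without any 1 of those 6 libraries and kept without either ρ0 control.

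**Figure D3:**
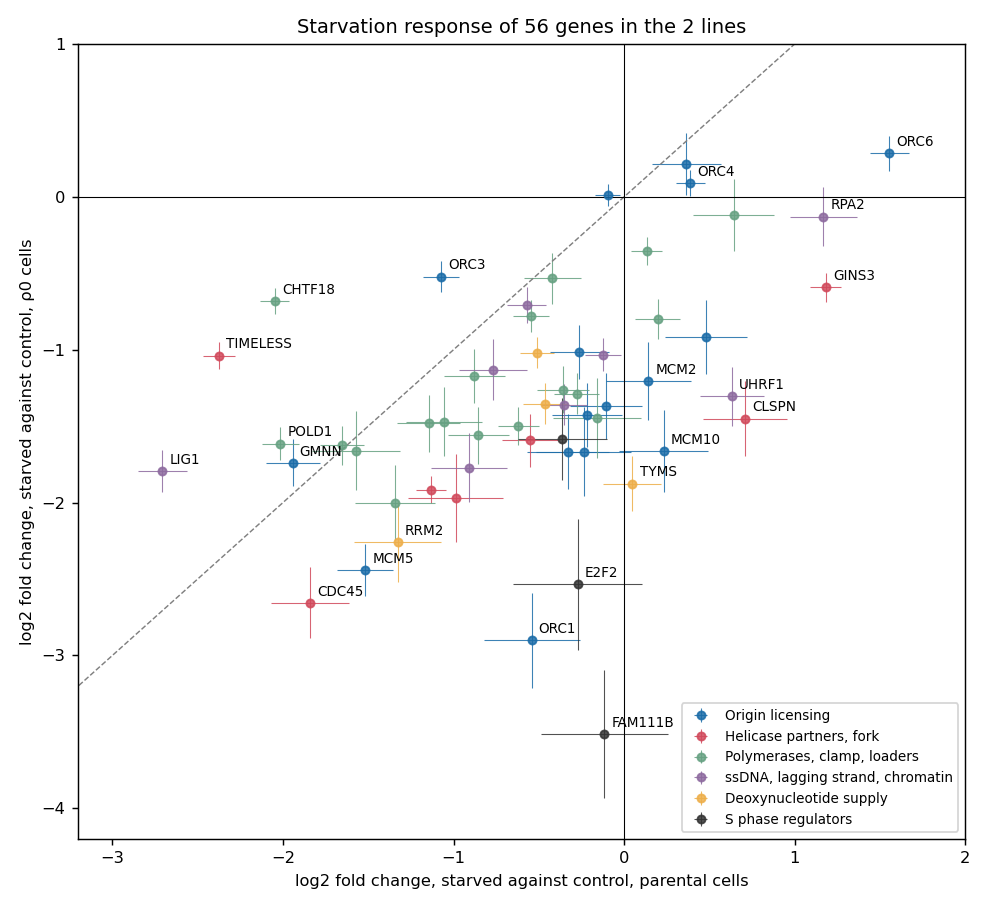
Log2 fold change of starved against control cells in parental (x axis) and ρ0 cells (y axis) for the 56 genes, coloured by role, with standard errors as bars and the line of equal response dashed. Most genes lie below the line, TIMELESS, CHTF18, LIG1 and ORC3 lie above it, and GINS3, CLSPN and UHRF1 sit to the right of 0 and below 0.

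Of the 16 origin licensing factors, 3 fell (18.8%) and 2 rose (12.5%) in parental cells, both below the shares of all genes (35.5% and 30.4%). In ρ0 cells 12 fell (75%) and 4 were not called, against 22.1% of all genes lower and 19.2% higher. The difference was called lower for 11 (68.8%) and higher for 1 (6.25%), against 18.8% and 21.6%. These shares of all genes also stand beside the counts of the role groups below. The median log2 fold changes of the licensing factors were -0.16 (parental cells), -1.29 (ρ0 cells) and -1.24 (difference). Without ρ0 control replicate 1 they were -0.17, -1.65 and -1.48, and without replicate 2 they were -0.12, -0.79 and -0.83. Leaving out these libraries was chosen for the role groups after the data were seen. Of the 6 subunits of the MCM2-7 helicase, 5 were not called in parental cells, and all 6 fell in ρ0 cells. MCM2 was at 244 and 251 CPM in the parental controls, 283 and 263 CPM in starved parental cells, 145 and 276 CPM in the ρ0 controls and 91.2 and 91.5 CPM in starved ρ0 cells. In parental cells the groups did not overlap, yet the log2 fold change was 0.14 (SE 0.25, adjusted p = 0.64) and its sign turned with total counts scaling (-0.02), while ρ0 starved libraries lay below all others at -1.20 (SE 0.25, adjusted p = 0.0081). MCM3 was at 230.1 and 238 CPM in the parental controls, 217 and 218 CPM in starved parental cells, 318 and 545 CPM in the ρ0 controls and 166 and 168 CPM in starved ρ0 cells, with ρ0 controls highest. MCM4 was at 199.9 and 191 CPM in the parental controls, 171 and 166 CPM in starved parental cells, 259 and 433 CPM in the ρ0 controls and 129 and 127 CPM in starved ρ0 cells, in the same order. Their log2 fold changes in ρ0 cells were -1.37 and -1.43, and in parental cells -0.11 and -0.22. MCM5 was the exception, at 130.1 and 129.98 CPM in the parental controls, 45 and 45.8 CPM in starved parental cells, 122 and 179 CPM in the ρ0 controls and 27 and 28.4 CPM in starved ρ0 cells. It fell in both lines, by a log2 fold change of -1.52 (SE 0.16, adjusted p = 1.5e-04) and -2.44 (SE 0.17, adjusted p = 1.4e-04). MCM6 was at 60.7 and 59.4 CPM in the parental controls, 47 and 48.6 CPM in starved parental cells, 109 and 199 CPM in the ρ0 controls and 47.6 and 49.5 CPM in starved ρ0 cells, and MCM7 at 353 and 367 CPM in the parental controls, 298 and 302 CPM in starved parental cells, 291 and 445 CPM in the ρ0 controls and 183 and 181 CPM in starved ρ0 cells. For MCM6 the starved ρ0 libraries overlapped those of starved parental cells. In a fit to the parental libraries alone MCM4, MCM6 and MCM7 were called lower (-0.18, -0.29 and -0.23) and MCM2 higher (0.17). The differences between responses were MCM2 -1.35, MCM3 -1.26, MCM4 -1.21, MCM5 -0.93, MCM6 -1.34 and MCM7 -0.75.

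The loaders followed the same pattern. CDC6, which with ORC recruits the helicase, was at 85.8 and 85.2 CPM in the parental controls, 119 and 119 CPM in starved parental cells, 116 and 213 CPM in the ρ0 controls and 86.1 and 88.1 CPM in starved ρ0 cells. Starved parental cells were above their controls without passing the test (0.48, SE 0.24, adjusted p = 0.11), although they were called higher in a fit to the parental libraries alone (0.51), without either ρ0 control library (0.48 and 0.52) and with group weights. Starved ρ0 cells were below theirs (-0.92, SE 0.24, adjusted p = 0.019), and the difference was -1.40 (SE 0.34, adjusted p = 0.015). CDT1, its partner in loading, was at 49.1 and 48.8 CPM in the parental controls, 43.3 and 39.8 CPM in starved parental cells, 34.8 and 71.1 CPM in the ρ0 controls and 16.5 and 16.9 CPM in starved ρ0 cells, and fell in ρ0 cells (-1.67, SE 0.29, adjusted p = 0.0036) but was not called in parental cells (-0.24), where it was lower in the fit to the parental libraries alone (-0.20). Its fall in ρ0 cells was -2.09 without ρ0 control replicate 1 and -1.05 without replicate 2. GMNN, which encodes geminin, the inhibitor of CDT1, fell in both lines, at -1.94 in parental and -1.74 in ρ0 cells, and the difference of 0.20 did not pass the test. MCM10, which helps to activate the helicase, was at 0.23 in parental cells, where it was not called, and at -1.66 in ρ0 cells.

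Subunits of ORC moved separately. ORC1, the subunit whose protein is known to cycle, was at 24 and 21.7 CPM in the parental controls, 16.4 and 15.1 CPM in starved parental cells, 20.8 and 41.5 CPM in the ρ0 controls and 4.16 and 4.18 CPM in starved ρ0 cells. Its fall in ρ0 cells was 7.47-fold (-2.90, SE 0.31, adjusted p = 5.3e-04), at -3.31 without ρ0 control replicate 1 and -2.31 without replicate 2, and starved ρ0 libraries were the lowest of the 8. ORC6 was at 39.3 and 38 CPM in the parental controls, 113 and 114 CPM in starved parental cells, 40.1 and 50.04 CPM in the ρ0 controls and 52.8 and 57 CPM in starved ρ0 cells. It rose 2.94-fold in parental cells (1.56, SE 0.11, adjusted p = 2.9e-05), the largest rise of the 56 genes, and was at 0.28 in ρ0 cells without passing the test. ORC3 was at 40.7 and 44.9 CPM in the parental controls, 19.6 and 21 CPM in starved parental cells, 61.1 and 53.4 CPM in the ρ0 controls and 39.98 and 39.8 CPM in starved ρ0 cells. It fell in both lines, more in parental cells (-1.07 against -0.52). ORC4 rose in parental cells (0.39), and ORC2 and ORC5 passed the test in neither line, with values of -0.10 and 0.36 in parental and 0.01 and 0.21 in ρ0 cells.

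All 7 partners of the helicase and fork passed the test in both lines, with 5 lower and 2 higher in parental cells and all 7 lower in ρ0 cells. The difference was called lower for 4 and higher for 1. Medians were -0.99 (parental cells), -1.59 (ρ0 cells) and -0.98 (difference). Without ρ0 control replicate 1 they were -0.99, -1.84 and -1.29, and without replicate 2 they were -0.95, -1.28 and -0.77. CDC45, which joins the MCM ring to form the active helicase, was at 37.9 and 37.1 CPM in the parental controls, 10.4 and 10.5 CPM in starved parental cells, 46.8 and 78.9 CPM in the ρ0 controls and 9.73 and 10.2 CPM in starved ρ0 cells. Starved libraries of both lines lay between 9.73 and 10.5 CPM, below all controls, with log2 fold changes of -1.84 (SE 0.23, adjusted p = 2.8e-04) and -2.66 (SE 0.23, adjusted p = 2.5e-04). The difference of -0.81 (SE 0.32, adjusted p = 0.076) did not pass the test. The GINS complex, the other partner of the ring, split. GINS1, GINS2 and GINS4 fell in both lines, at -0.55, -0.99 and -1.13 in parental and -1.59, -1.97 and -1.91 in ρ0 cells. For GINS2 the fall in ρ0 cells was -2.38 without ρ0 control replicate 1 and -1.38 without replicate 2. GINS3 was at 21.7 and 22.9 CPM in the parental controls, 49.2 and 52.1 CPM in starved parental cells, 23 and 22.9 CPM in the ρ0 controls and 15.4 and 15 CPM in starved ρ0 cells. It rose in parental cells (1.18, SE 0.09, adjusted p = 3.4e-05) and fell in ρ0 cells (-0.59, SE 0.09, adjusted p = 0.0023), the ratio of its ρ0 controls was 0.997, and the difference was -1.78 (SE 0.13, adjusted p = 2.3e-04).

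CLSPN, which encodes claspin, the mediator that passes stalled fork signals to CHK1, was at 43.1 and 42.3 CPM in the parental controls, 70.2 and 69.5 CPM in starved parental cells, 70.5 and 131 CPM in the ρ0 controls and 37.1 and 36.6 CPM in starved ρ0 cells. The log2 fold changes were 0.71 (SE 0.24, adjusted p = 0.034) in parental and -1.45 (SE 0.25, adjusted p = 0.0034) in ρ0 cells, and its rise in parental cells was not called with upper quartile or total counts scaling or without any 1 parental library. TIMELESS, which holds the helicase and polymerases together at the fork, was at 127 and 133 CPM in the parental controls, 25 and 25 CPM in starved parental cells, 78.6 and 89.9 CPM in the ρ0 controls and 40.1 and 41.9 CPM in starved ρ0 cells. It fell 5.19-fold in parental and 2.06-fold in ρ0 cells, and its difference of 1.34 (SE 0.13, adjusted p = 5.2e-04) was in the direction opposite to most of the set. All starved libraries of TIMELESS lay below all controls.

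Among the 18 polymerase, clamp and clamp loader genes, 11 fell and 1 rose in parental cells and 17 fell in ρ0 cells, but the difference was called lower for 6 and higher for 1. Medians of these genes were -0.74 (parental cells), -1.37 (ρ0 cells) and -0.45 (difference). Without ρ0 control replicate 1 they were -0.74, -1.57 and -0.67, and without replicate 2 they were -0.70, -1.01 and -0.18. PCNA, the sliding clamp, was at 117 and 119 CPM in the parental controls, 101 and 111 CPM in starved parental cells, 137 and 265 CPM in the ρ0 controls and 73.8 and 73.9 CPM in starved ρ0 cells. In parental cells its groups did not overlap, with a log2 fold change of -0.16 (SE 0.26, adjusted p = 0.61), and in ρ0 cells it fell at -1.45 (SE 0.26, adjusted p = 0.0043). Subunits of the clamp loader RFC differed. RFC3, RFC4 and RFC5 fell in both lines, at -0.62, -0.88 and -0.85 in parental and -1.50, -1.17 and -1.56 in ρ0 cells, while RFC1 and RFC2 fell in ρ0 cells (-0.35 and -0.80) and were not called in parental cells (0.13 and 0.20). CHTF18, a subunit of the alternative loader that acts in sister chromatid cohesion, was at 78.1 and 82.7 CPM in the parental controls, 19.8 and 19.1 CPM in starved parental cells, 42.2 and 41.3 CPM in the ρ0 controls and 26.2 and 25.9 CPM in starved ρ0 cells. It fell 4.13-fold in parental and 1.60-fold in ρ0 cells, a difference of 1.36 (SE 0.12, adjusted p = 3.7e-04). DSCC1, another subunit of that loader, fell at -1.57 and -1.66, and its difference of -0.09 changed sign between the fits without either ρ0 control library.

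Of the 10 polymerase subunits, 6 fell in both lines. In the polymerase alpha and primase complex, which lays the first primers, POLA2, PRIM1 and PRIM2 fell in parental cells at -1.66, -1.34 and -0.54 and in ρ0 cells at -1.63, -2.0 and -0.78. POLA1, its catalytic subunit, was at 38.7 and 36 CPM in the parental controls, 28.2 and 30.1 CPM in starved parental cells, 81.6 and 113 CPM in the ρ0 controls and 39.3 and 42.1 CPM in starved ρ0 cells. Its ρ0 controls were above all other libraries, and it fell in ρ0 cells (-1.26, SE 0.15, adjusted p = 8.3e-04) and was not called in parental cells (-0.36, SE 0.15, adjusted p = 0.073). POLD1, the catalytic subunit of lagging strand polymerase delta, fell at -2.02 (SE 0.11, adjusted p = 1.1e-05) in parental and -1.61 (SE 0.11, adjusted p = 1.3e-04) in ρ0 cells, and its partners POLD2 and POLD3 were at -0.42 (not called) and -1.14 in parental and -0.53 and -1.48 in ρ0 cells. POLE, the catalytic subunit of leading strand polymerase epsilon, was at -0.28 in parental cells, where it was not called, and at -1.29 in ρ0 cells. Its subunit POLE2 fell at -1.06 and -1.47. POLE3, a histone-fold subunit of the same polymerase, rose in parental cells (0.64) and was at -0.12 in ρ0 cells, where it did not pass the test. Its rise was lost with upper quartile or total counts scaling, with the filter at a mean of 1 CPM and without any 1 of the 6 libraries other than the ρ0 controls.

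Of 8 genes for single-stranded DNA, lagging strand and chromatin assembly, 5 fell and 2 rose in parental cells, and 7 fell in ρ0 cells. Their medians were -0.46 in parental and -1.22 in ρ0 cells. Without ρ0 control replicate 1 these were -0.47 and -1.36, and without replicate 2 they were -0.42 and -1.02. LIG1, the ligase that seals Okazaki fragments, was at 60.4 and 63 CPM in the parental controls, 9.11 and 9.75 CPM in starved parental cells, 79.4 and 104 CPM in the ρ0 controls and 27.1 and 25.8 CPM in starved ρ0 cells. It fell 6.54-fold in parental cells (-2.71, SE 0.14, adjusted p = 1.0e-05), the largest fall there, and 3.47-fold in ρ0 cells (-1.79, SE 0.14, adjusted p = 1.8e-04). Starved parental libraries were the lowest, and the difference was 0.91 (SE 0.19, adjusted p = 0.0087). FEN1, the nuclease that trims the same fragments, was not called in parental cells (-0.12) and fell in ρ0 cells (-1.03). The trimer RPA, which coats single-stranded DNA, did not move as a unit. RPA2 was at 52.6 and 54.6 CPM in the parental controls, 119.6 and 121 CPM in starved parental cells, 57.8 and 93.8 CPM in the ρ0 controls and 69.4 and 69.3 CPM in starved ρ0 cells. It rose in parental cells (1.17, SE 0.20, adjusted p = 0.0013), and in ρ0 cells its control libraries lay on either side of the starved ones. RPA1 and RPA3 fell in both lines, at -0.57 and -0.77 in parental and -0.71 and -1.13 in ρ0 cells.

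UHRF1, which carries DNA methylation through replication, was at 54 and 52.6 CPM in the parental controls, 83 and 82.3 CPM in starved parental cells, 64.4 and 103 CPM in the ρ0 controls and 34 and 33.7 CPM in starved ρ0 cells. Starved parental libraries were above their controls and starved ρ0 libraries below theirs, at 0.63 (SE 0.19, adjusted p = 0.020) and -1.31 (SE 0.19, adjusted p = 0.0019), and the difference was -1.94 (SE 0.27, adjusted p = 0.0019). Its rise in parental cells was not called with total counts scaling or without any 1 parental library. CHAF1A and CHAF1B, subunits of the histone chaperone that places nucleosomes behind the fork, fell in both lines, at -0.35 and -0.91 in parental and -1.36 and -1.77 in ρ0 cells. The call of CHAF1A in parental cells was lost with DESeq2's size factors, DESeq2, limma-voom or no filter on low counts, and without any 1 of the 6 libraries other than the ρ0 controls.

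All 4 genes that supply deoxynucleotides fell in ρ0 cells, and 3 of them fell in parental cells. Their medians were -0.49 in parental and -1.62 in ρ0 cells. Without ρ0 control replicate 1 these were -0.49 and -1.84, and without replicate 2 they were -0.45 and -1.35. RRM2, the regulated subunit of ribonucleotide reductase, was at 153 and 151 CPM in the parental controls, 62.1 and 59.2 CPM in starved parental cells, 215 and 406 CPM in the ρ0 controls and 66.9 and 62.8 CPM in starved ρ0 cells. Starved libraries of both lines lay between 59.2 and 66.9 CPM, below all controls, with falls of 2.51-fold and 4.78-fold, and the difference of -0.93 (SE 0.35, adjusted p = 0.072) did not pass the test. RRM1, the large subunit, fell at -0.46 and -1.36. TK1, the thymidine kinase of the salvage route, was at 130.3 and 141 CPM in the parental controls, 94.4 and 96.4 CPM in starved parental cells, 241 and 201 CPM in the ρ0 controls and 109 and 109 CPM in starved ρ0 cells, and its difference was -0.51 (SE 0.14, adjusted p = 0.026). TK1 was 1 of the 6 genes that were not higher in ρ0 control replicate 2 than in replicate 1. TYMS, the synthase of thymidylate, was not called in parental cells (0.05, SE 0.17, adjusted p = 0.82) and fell 3.67-fold in ρ0 cells (-1.88, SE 0.18, adjusted p = 3.5e-04).

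The 3 S phase regulators fell in ρ0 cells and did not pass the test in parental cells. Their medians were -0.27 in parental and -2.54 in ρ0 cells. Without ρ0 control replicate 1 these were -0.28 and -3.05, and without replicate 2 they were -0.23 and -1.69. E2F1, an activator of the replication genes, was at 75.1 and 79.8 CPM in the parental controls, 61.1 and 59.3 CPM in starved parental cells, 108 and 211 CPM in the ρ0 controls and 53.2 and 53.3 CPM in starved ρ0 cells. Its log2 fold change was -0.36 (SE 0.26, adjusted p = 0.26) in parental and -1.58 (SE 0.27, adjusted p = 0.0031) in ρ0 cells, and starved libraries of both lines lay between 53.2 and 61.1 CPM. The fall of E2F1 in parental cells was called in a fit to the parental libraries alone (-0.33), without either ρ0 control library (-0.36 and -0.32) and with group weights. E2F2, a related activator, was at 7.97 and 7.75 CPM in the parental controls, 6.57 and 6.45 CPM in starved parental cells, 5.45 and 13.9 CPM in the ρ0 controls and 1.86 and 1.45 CPM in starved ρ0 cells. It fell 5.80-fold in ρ0 cells (-2.54, SE 0.43, adjusted p = 0.0032), at -3.05 without ρ0 control replicate 1 and -1.69 without replicate 2, and its difference of -2.26 became -2.77 and -1.45. FAM111B, a protease gene of the replication wave, was at 33.2 and 34 CPM in the parental controls, 30.9 and 31.1 CPM in starved parental cells, 46.7 and 123 CPM in the ρ0 controls and 7.33 and 7.5 CPM in starved ρ0 cells. It showed the largest fall of the set, 11.4-fold in ρ0 cells (-3.52, SE 0.42, adjusted p = 7.6e-04), against -0.12 in parental cells, and the largest difference (-3.40, SE 0.55, adjusted p = 0.0033). Against ρ0 control replicate 1 alone its fall was -2.64 on the log2 scale and the difference -2.56, and against replicate 2 alone they were -4.05 and -3.93.

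**Figure D4:**
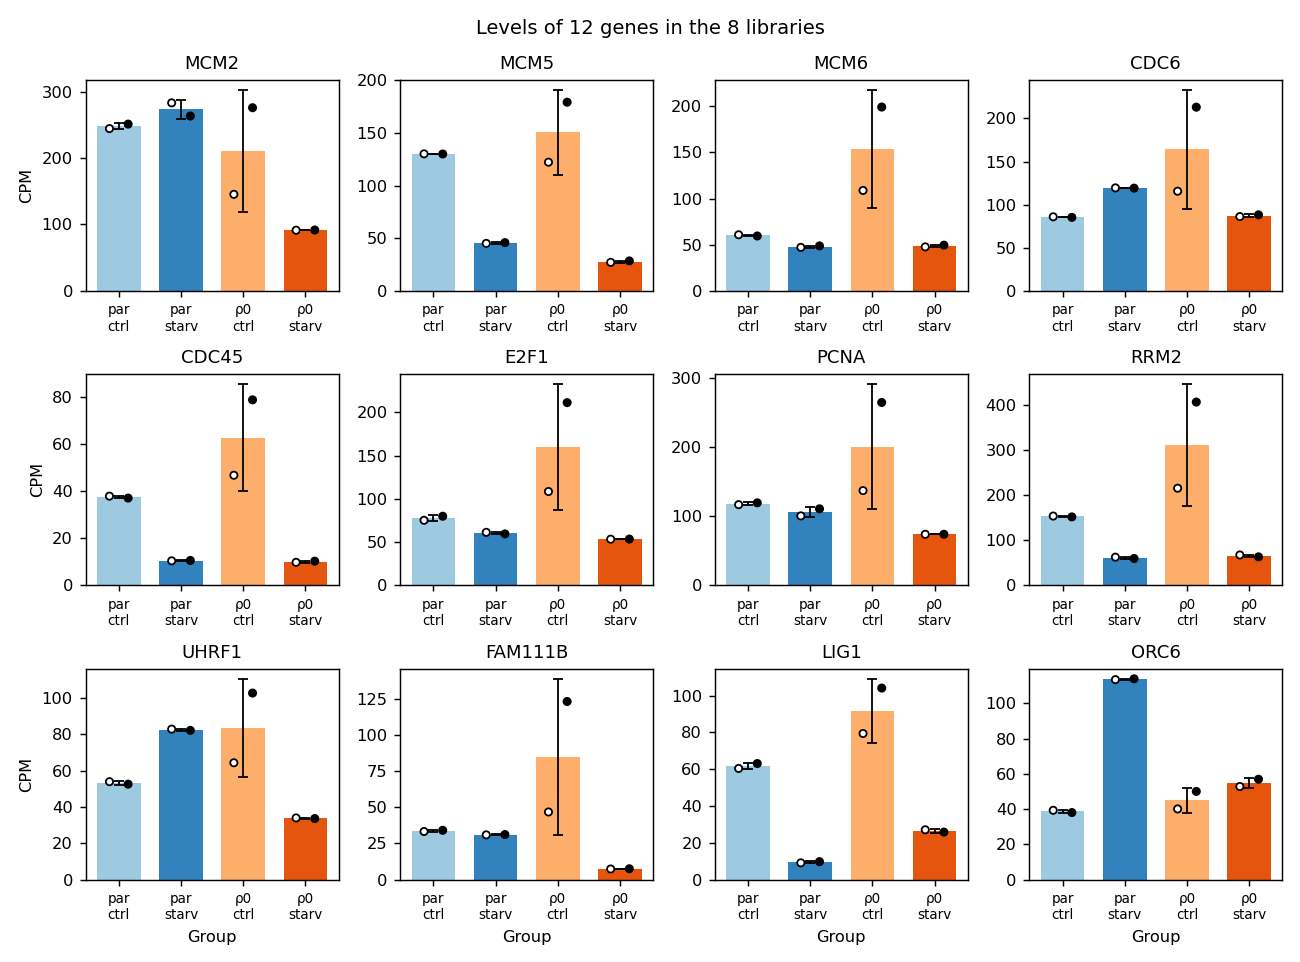
CPM of 12 genes in the 4 groups (par, parental; ctrl, control; starv, starved). Bars are means and error bars are SD of 2 libraries, open points are replicate 1 and filled points replicate 2. The ρ0 control points are far apart for FAM111B (46.7 and 123 CPM) and close to each other for ORC6 (40.1 and 50.04 CPM).

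In full medium, without starvation, the lines already differed, by a size that depended on the ρ0 library. Of the 56 genes, 26 were higher (46.4%) and 4 lower (7.14%) in ρ0 controls, against 30.5% and 31.8% of all genes tested, and the median log2 difference was 0.31, against -0.01. That median was 0.54 without ρ0 control replicate 1 and 0.13 without replicate 2. Summed over the 56 genes, parental controls were at 4891 and 4975 CPM and ρ0 controls at 5065 and 7562 CPM, so ρ0 control replicate 1 was close to the parental controls in this sum. The largest differences upward were POLA1 at 1.38 (SE 0.15, adjusted p = 1.8e-04), MCM6 at 1.36 (SE 0.24, adjusted p = 0.0019) and FAM111B at 1.34 (SE 0.37, adjusted p = 0.016), and those downward CHTF18 at -0.94 (SE 0.08, adjusted p = 5.3e-05), RFC5 at -0.69 (SE 0.18, adjusted p = 0.011) and TIMELESS at -0.63 (SE 0.09, adjusted p = 5.8e-04). FAM111B was at 1.87 without ρ0 control replicate 1 and 0.53 without replicate 2, and its call was lost without either parental control library and in the fit to the groups compared. RFC5 was at 95.5 and 96.1 CPM in the parental controls, 53.1 and 52.9 CPM in starved parental cells, 46.5 and 72.2 CPM in the ρ0 controls and 20.1 and 20.2 CPM in starved ρ0 cells, with both ρ0 controls below both parental ones. Without either ρ0 control library the genes were called higher more often than all genes tested, and lower less often. Without either parental control library they were called higher less often than all genes tested. The median was then 0.33 without parental control replicate 1 and 0.30 without replicate 2. A fit to the groups compared called 13 higher and 3 lower, beside 3465 and 3741 of all genes. Of the 30 calls, 9 were kept in every one of 19 alternative settings (MCM6, ORC4, CLSPN, POLA1, CHAF1A and TK1 higher, TIMELESS, RFC1 and CHTF18 lower).

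Compared under starvation, ρ0 cells had less RNA than starved parental cells for 25 of the 56 genes (44.6%) and more for 9 (16.1%), against 33.5% and 32.9% of all genes tested, and the median was -0.47, against -0.01. The median was -0.46 without ρ0 control replicate 1 and -0.44 without replicate 2. The lowest were FAM111B at -2.06 (SE 0.41, adjusted p = 0.0028), E2F2 at -1.97 (SE 0.43, adjusted p = 0.0048) and ORC1 at -1.91 (SE 0.31, adjusted p = 0.0011). The highest were LIG1 at 1.49 (SE 0.14, adjusted p = 7.3e-05), ORC3 at 0.97 (SE 0.11, adjusted p = 1.3e-04) and TIMELESS at 0.71 (SE 0.09, adjusted p = 3.2e-04). Summed levels were 3977 and 3990 CPM in starved parental and 2827 and 2834 CPM in starved ρ0 cells. In a fit to the 4 starved libraries alone the counts were 34 lower and 16 higher, beside 6096 lower and 6223 higher over all genes. Of the 34 calls 26 were kept in every alternative setting.

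A further 54 genes of replication and its control, which are no members of the set, were called in parental cells about as often as all genes. In parental cells 16 fell (29.6%) and 19 rose (35.2%), against 35.5% and 30.4% of all genes tested (median 0.08). In ρ0 cells 37 fell (68.5%) and 2 rose (3.7%), against 22.1% and 19.2% (median -0.77). The difference was called lower for 33 (61.1%) and higher for 1 (1.85%), against 18.8% and 21.6%. The median difference was -0.67. Without ρ0 control replicate 1 the medians were 0.08 (parental cells), -0.88 (ρ0 cells) and -0.75 (difference). Without replicate 2 they were 0.12, -0.52 and -0.56. Leaving out these libraries was chosen for these lists after the data were seen. The strongest rises under starvation of parental cells were those of CDC25A, the phosphatase that activates CDK2 (1.99), CCNE2, cyclin E2 (1.70), and E2F3 (1.31), and falls included those of CCNA2, cyclin A2 (-1.70), and MTBP (-1.55). CCNE2 was at 11 and 10.2 CPM in the parental controls, 35 and 34.2 CPM in starved parental cells, 25.4 and 62.8 CPM in the ρ0 controls and 16.8 and 18.5 CPM in starved ρ0 cells, and fell in ρ0 cells (-1.32). In ρ0 cells the largest falls were those of E2F8 (-2.29), EXO1 (-2.05) and DNA2 (-1.96), and the 2 genes that rose were TOP1 (0.93) and E2F3 (0.65). Of 30 genes of mitosis, 26 fell (86.7%) and 4 were not called in each line, against falls of 35.5% (parental) and 22.1% (ρ0) of all genes. Their medians were -1.47 in parental and -1.29 in ρ0 cells. The difference was called lower for 2 (6.67%) and higher for 3 (10%), against 18.8% and 21.6% of all genes. For these mitosis genes the median difference was 0.23. It depended on the ρ0 controls, at 0.48 without replicate 1 and 0.02 without replicate 2. Their summed level went from 5091 and 5033 CPM to 1959 and 1972 CPM in parental cells, and from 6179 and 4373 CPM to 2221 and 2253 CPM in ρ0 cells.

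Genes with and without the E2F letters were set side by side. Of the 22 genes with E2F letters, 22 fell in ρ0 cells (median -1.46), and of the 26 with a promoter but without the letters, 21 fell (median -1.04). In parental cells 7 of the 22 fell and 3 rose (median -0.27), and 15 of the 26 fell and 3 rose (median -0.53). Over all genes tested 35.5% fell and 30.4% rose in parental cells, and 22.1% fell and 19.2% rose in ρ0 cells. Falls in parental cells among genes with the letters were thus near the share of all genes. The difference was called lower for 18.8% and higher for 21.6% of all genes. The difference between responses had a median of -1.24 with the letters, called lower for 17 genes and higher for 2, and of -0.58 without them, called lower for 9 and higher for 2. Without ρ0 control replicate 1, a setting chosen for these groups after the data were seen, the medians with and without the letters were -1.78 and -1.15 in ρ0 cells and -1.61 and -0.79 for the difference, and without replicate 2 they were -1.02 and -0.90, and -0.79 and -0.33. In parental cells the medians with and without the letters were -0.28 and -0.53 when replicate 1 was left out. They were -0.24 and -0.49 when replicate 2 was left out. The overlap was wide: LIG1 holds the letters and its difference was 0.91, while ORC1 holds none in this window and its difference was -2.36. These are descriptions of a set chosen by function, and no test was made between them.

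Exons of 21 of the 56 genes overlap those of another gene in the GENCODE annotation (version 29), 18 of them on the opposite strand, such as TYMS with ENOSF1, MCM7 with AP4M1, CHTF18 with RPUSD1 and RPA3 with UMAD1. Whether strand was used in counting is not given in the sources used here, so reads of such pairs may be shared.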

How the data were processed

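The authors deposited 1 table of raw counts per gene symbol for 8 libraries, without normalization. The submitters' processing notes name Bowtie, Partek and the build hg19, with no versions, and strand use is not given in the sources used here. Tools were edgeR 4.0.16, DESeq2 1.42.0 and limma 3.58.1 under R 4.3.3. The filterByExpr rule kept 15262 of 23393 genes, and TMM gave the scaling. In 1 quasi-likelihood model each group had its own mean over the 8 libraries (4 residual degrees of freedom, prior 3.40, common coefficient of variation 12.4%). Contrasts were starvation in each line, their difference, and the lines in each medium. Called genes had an adjusted p (Benjamini-Hochberg) under 0.05, and DEGs also a log2 fold change beyond 1. Levels are TMM-scaled CPM, compared within a gene only. On simulated data of 15262 genes the parental contrast recovered 74 of 100 genes changed by 1 and 90 of 100 changed by 2 on the log2 scale, and the interaction 36 and 83. The simulation gave each gene the same spread in every group, unlike these data, so the rates need not hold for these contrasts. All members and lists were chosen with earlier results of these data known. Values in every library are given for MCM2 to MCM7, CDC6, CDT1, CDC45, E2F1, PCNA, RRM2, TK1, UHRF1, FAM111B and the 3 largest rises and falls among called genes per comparison, and further replication genes are named by the last of these rules. CCNE2 values were added after they were seen. The values of 1 further replication gene named by this rule are not reported here. Replicate pairs differed beyond sampling noise, so none was counted as 1 library. Alternatives were other scalings and filters, DESeq2, limma-voom with and without group weights, a replicate block, fits to the groups compared, an adjusted p of 0.01 and leaving out each library.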

Additional observations from a re-analysis of the deposited data

Results flagged for a closer look

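For 35 of the 56 genes the test of the interaction found that starved ρ0 cells responded differently from starved parental cells, against 18.8% of all genes called lower and 21.6% called higher. Values are the ρ0 response minus the parental response, on the log2 scale. Among licensing factors they were MCM2 -1.35, MCM3 -1.26, MCM4 -1.21, MCM5 -0.93, MCM6 -1.34, MCM7 -0.75, MCM10 -1.89, CDC6 -1.40, CDT1 -1.43, ORC1 -2.36, ORC6 -1.27 and ORC3 0.55. Among helicase partners and fork genes they were GINS1 -1.04, GINS3 -1.78, GINS4 -0.78, CLSPN -2.16 and TIMELESS 1.34. Polymerase, clamp and loader genes were PCNA -1.28, RFC1 -0.49, RFC2 -0.99, RFC3 -0.88, POLA1 -0.90, POLE -1.01 and CHTF18 1.36. Genes of single-stranded DNA, lagging strand and chromatin were RPA2 -1.30, FEN1 -0.91, CHAF1A -1.01, UHRF1 -1.94 and LIG1 0.91. Nucleotide supply gave RRM1 -0.89, TYMS -1.92 and TK1 -0.51, and the regulators E2F1 -1.22, E2F2 -2.26 and FAM111B -3.40. The ρ0 control libraries, which enter each of these values, differed by a median of 1.51-fold in the 56 genes, and the part of that gap in the values was not tested. For FAM111B and E2F2 the values were -3.93 and -2.77 without replicate 1 and -2.56 and -1.45 without replicate 2. Without ρ0 control replicate 2, the higher of the pair, the median difference over the 56 genes was -0.67, and without replicate 1 it was -1.12.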

How the results depend on the processing

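The counts of genes higher in starved parental cells (7) became 3 with total counts scaling, 12 with limma-voom weighted by group, 13 in a fit to the groups compared and 4 at an adjusted p of 0.01. At that threshold the interaction was lower for 16 genes and the ρ0 controls higher for 13, and the fit to the groups compared gave 13 for the latter. Between starved lines the count higher was 14 with group weights and 16 in the fit to the groups compared. Leaving out 1 library in turn, counts ranged from 3 to 13 (higher, parental starvation), 0 to 4 (higher, ρ0 starvation), 16 to 47 (lower, interaction), 3 to 8 (higher, interaction), 3 to 15 (lower, full medium), 7 to 47 (higher, full medium) and 6 to 15 (higher, starved lines). An arm with 1 library left was assumed to vary like the others, and the number of calls over all genes moved too. Among values called in the setting tried, directions turned only with a ρ0 control library left out. Over the libraries left out, ρ0 starvation ranged from -0.49 to 0.39 for POLE3 and from -0.44 to 0.28 for RPA2, and the interaction from -0.47 to 0.39 for DSCC1 and from -0.37 to 0.18 for POLD2. In full medium the ranges were MCM2 -0.72 to 0.16, MCM7 -0.25 to 0.31, ORC5 -0.42 to 0.23, CDT1 -0.44 to 0.54, DSCC1 -0.29 to 0.55, POLD1 -0.11 to 0.13, POLE2 -0.52 to 0.19 and E2F2 -0.48 to 0.82. The cause of these moves was not tested. Same-numbered libraries did not deviate together (correlations from -0.10 to 0.06). With 2 libraries a group this check cannot exclude a shared batch, and the labels state no pairing. With the replicate number as a block the counts lower and higher were 28 and 7 (parental starvation), 50 and 0 (ρ0 starvation), 31 and 4 (interaction), 4 and 25 (full medium) and 25 and 9 (starved lines). The lowest levels were those of E2F2 in starved ρ0 cells (1.86 and 1.45 CPM), where counting limits the precision most.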
